A study of Mus musculus with 6 samples.

Results

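The Hox genes described here are the 36 genes, of 19954 in the deposited count table, whose symbols are Hoxa, Hoxb, Hoxc or Hoxd followed by a number. Membership was set by symbol alone, but the family was chosen with earlier results of these data known. The HoxA cluster gave 9 of them, HoxB 10, HoxC 9 and HoxD 8, and Hoxa3, Hoxa4 and Hoxd12 were not analysed here. Together they took 8690 of the unique molecular identifiers (UMIs, 1 per captured RNA molecule), 0.0478% of all UMIs, and 5339 of 18514 nuclei held at least 1.

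Hox genes encode homeodomain transcription factors that sit in 4 clusters, and within a cluster their order on the chromosome follows the order in which they are used along the head-to-tail axis of the embryo. Genes at the same place in different clusters share a number, the paralog group, with low numbers used from the hindbrain backwards and high numbers only in the trunk and tail. In the spinal cord this code sets the segmental identity of motor neurons and helps to diversify interneurons, the lumbar cord being marked by posterior groups, and many Hox genes stay active in the adult.

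The study sequenced single nuclei (10x Genomics v2 chemistry, which reads the RNA's 3′ end) of lumbar cord from C57BL/6 mice, wild type, whose hind legs were paralysed after a severe thoracic contusion. All 6 libraries come from mice that spent 30 minutes on a treadmill. The 3 CON libraries had no stimulation, and the 3 TESS libraries had TESS, an epidural electrical stimulation of the lumbar cord that restored stepping in the presence of serotonin 5-HT1a and dopamine D1 agonists. The labels do not say whether the CON mice received the agonists, how old the mice were or how many mice gave a library, and they name the tissue as lumbar cord in one field and the dissected piece as the thoracic injury site in another, so the level of the dissection rests on the labels. No uninjured cord was included, and injury is shared by both groups.

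The 6 libraries held 2192 to 3780 nuclei and 1582104 to 4037976 UMIs each, and the deposited annotation split them into 6035 neurons, 8837 oligodendrocytes, 1656 microglia, 1091 astrocytes, 674 oligodendrocyte precursor cells and 221 endothelial cells. The series text speaks of 20484 nuclei and 6171 neurons. Levels are given as CPM, the UMIs of a gene per 1000000 UMIs of the same class of nuclei in the same library. The neurons carry 38 deposited subtype names. Of these, 9, with 1821 nuclei, start with V1 or V2 or are MN (motor neurons) or CSF-N (neurons in contact with cerebrospinal fluid) and are called ventral-named here; the other 29, with 4214 nuclei, are called other-named. The names were checked against markers in part only: the V1 markers summed to 146 CPM in V1/Adam23, the cerebrospinal fluid contacting markers to 7589 CPM in CSF-N and the cholinergic markers to 910 CPM in MN. Each sum is given for its own subtype only, without its level in other subtypes, so it does not show that the name is borne out. The V2a and V2b names were used only as labels.

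The 250 bases before the transcription start are shown for 3 members that stood apart between classes of nuclei in the results below. Hoxb8 was higher in other-named neurons, Hoxd11 in ventral-named neurons and Hoxd8 in oligodendrocytes. The sequences are RefSeq's for GRCm38.p6, all on the plus strand. Capitals mark CpG dinucleotides, which are dense in the promoters of genes under Polycomb control. The Hoxd11 window (at the second of its listed starts) lies within the Hoxd11 gene but in no annotated exon, the Hoxd8 window lies within the antisense gene Hoxd3os1 and in no exon, and the Hoxb8 window lies in no annotated gene.
Hoxb8, chr11:96281655-96281904: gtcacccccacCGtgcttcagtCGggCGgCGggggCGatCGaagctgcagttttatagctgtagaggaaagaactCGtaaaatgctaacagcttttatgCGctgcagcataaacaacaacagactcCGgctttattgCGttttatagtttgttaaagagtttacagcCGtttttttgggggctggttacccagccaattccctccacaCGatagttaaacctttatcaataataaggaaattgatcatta
Hoxd11, chr2:74682073-74682322: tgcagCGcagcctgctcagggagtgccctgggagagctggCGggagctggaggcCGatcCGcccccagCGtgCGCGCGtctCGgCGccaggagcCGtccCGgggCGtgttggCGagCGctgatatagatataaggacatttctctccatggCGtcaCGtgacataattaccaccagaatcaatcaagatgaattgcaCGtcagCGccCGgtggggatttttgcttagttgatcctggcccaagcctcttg
Hoxd8, chr2:74704365-74704614: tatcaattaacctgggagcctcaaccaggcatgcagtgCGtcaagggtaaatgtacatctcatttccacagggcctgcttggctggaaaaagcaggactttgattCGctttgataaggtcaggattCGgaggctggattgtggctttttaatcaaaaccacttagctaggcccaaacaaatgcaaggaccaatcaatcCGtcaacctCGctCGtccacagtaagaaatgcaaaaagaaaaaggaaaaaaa
The 3 windows hold 12, 20 and 6 CpGs. The 22 windows found for 20 members had a median of 12.5 CpGs (range 2 to 35), against 6 over all 32851 promoter windows. The letters TGATTNAT, a composite site for Hox and Pbx proteins, occurred on either strand in the Hoxd11 window and in 2 of 22 member windows, and in 2.82% of all windows. The first listed Hoxd11 start, not shown, had only 4 CpGs and 0 copies of TGATTNAT in the 300 bases around it. TTTATGG occurred in 1 of 22 and in 2.43% of all, and AGGTCA repeated after 5 bases, a form bound by retinoic acid receptors, in 0 of 22 and in 0.00913% of all.

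In neurons, groups 6 to 9 held 55.7% of the Hox UMIs, groups 1 to 5 held 35.2% and groups 10 to 13 held 9.03%. The 12 highest members held 81.5% of the 6919 Hox UMIs of neurons. All 36 members are accounted for by UMIs in neurons as 13 with at least 200, 8 with 60 or more but under 200, 7 with 10 to 59, 7 with 1 to 9 and 1 (Hoxa13) with none.

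Hoxb6, the highest member, stood at 85.7, 65.7 and 77.1 CPM in CON libraries 1, 2 and 3 and at 62.6, 68.6 and 62.0 CPM in TESS libraries 1, 2 and 3. Hoxb8, which in mice is also known for its role in microglia and grooming, stood at 54.4, 64.6 and 63.1 CPM in CON and 62.0, 34.9 and 49.8 CPM in TESS. Hoxb3 was at 37.4, 34.2 and 30.4 CPM in CON and 42.6, 31.8 and 40.6 CPM in TESS. In none of these 3 genes were the groups apart. Hoxb9 was at 29.0, 24.2 and 25.2 CPM in CON and 29.9, 30.5 and 28.4 CPM in TESS. Hoxb7 was at 23.9, 23.1 and 18.7 CPM in CON and 21.0, 16.8 and 20.3 CPM in TESS. Hoxb4 was at 26.3, 30.7 and 26.6 CPM in CON and 18.3, 15.6 and 25.4 CPM in TESS, and here all 3 TESS libraries lay below all 3 CON libraries.

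Of the HoxA cluster, Hoxa9, which marks thoracic and lumbar levels, was the most even across libraries. It stood at 60.2, 66.9 and 57.0 CPM in CON and 58.1, 61.1 and 63.0 CPM in TESS. Hoxa7 stood at 47.5, 43.4 and 34.1 CPM in CON and 41.5, 47.4 and 37.6 CPM in TESS. Hoxa10, needed with Hoxc10 and Hoxd10 for lumbar motor neuron identity, stood at 22.4, 21.5 and 24.3 CPM in CON and 21.6, 15.6 and 24.4 CPM in TESS. The groups overlapped in all 3.

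In the HoxC cluster, 2 genes with cervical numbers led. Hoxc5 stood at 44.0, 51.5 and 45.8 CPM in CON and 62.0, 56.1 and 63.0 CPM in TESS, and Hoxc4 at 46.7, 41.9 and 34.1 CPM in CON and 52.6, 53.6 and 52.8 CPM in TESS. In both, the TESS libraries lay above the CON libraries. Hoxc8, which patterns the brachial and thoracic cord, stood at 21.6, 17.7 and 17.3 CPM in CON and 17.2, 28.1 and 30.5 CPM in TESS, with overlap. The annotated Hoxc5 gene spans chr15:102967443-103017429, plus strand, and so encloses Hoxc6, Hoxc8 and Hoxc9 and overlaps Hoxc10. Only 5.37% of its exonic bases are shared with other genes on its strand, and none of its last 500.

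The posterior genes of HoxC and HoxD were lower than Hoxa9 and Hoxa10. Hoxd11 averaged 14.9 ± 4.83 CPM in neurons (SD, n = 6 libraries), Hoxd9 6.61 ± 1.88, Hoxd10 6.70 ± 2.98, Hoxc10 4.45 ± 2.34 and Hoxc11 2.81 ± 1.18 CPM. By paralog group, the share of neuronal Hox UMIs was highest at group 9, at 18.4% (17.4 to 20.5% over libraries), followed by group 8 with 13.99% (12.2 to 16.1%). Group 1 held 0.116%. The mean paralog number, the number in the symbol averaged over all Hox UMIs, was 6.64 in neurons. The groups differ in how many members they hold, group 9 having a member in every cluster, so these shares and this mean also depend on that number. A 3′ tag count is not divided by gene length, but genes also differ in how well their ends are captured and primed, so these ranks compare UMIs and not transcripts.

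**Figure D1:**
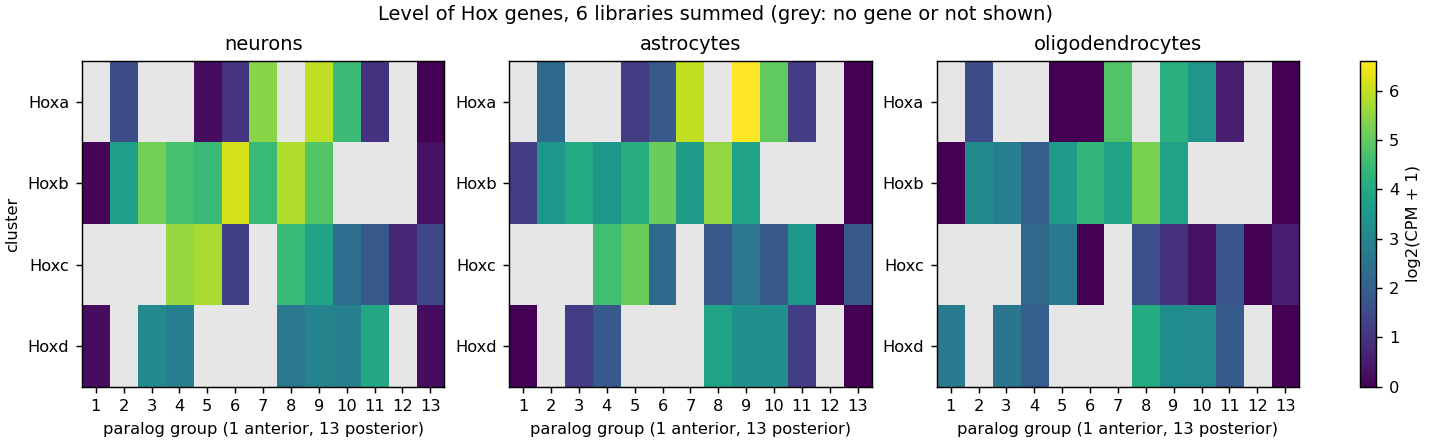
Level of Hox genes in neurons, astrocytes and oligodendrocytes, as log2(CPM + 1) with the 6 libraries summed; rows are the 4 clusters, columns the paralog groups, grey squares have no gene or are not shown. Neurons are bright in Hoxa7, Hoxa9, Hoxb6, Hoxb8, Hoxc4 and Hoxc5, while in oligodendrocytes the HoxC row is dark (Hoxc5 5.49 CPM against 52.0 in neurons) and Hoxd8 is brighter (15.8 against 5.29 CPM).

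The clusters divided between ventral-named and other-named neurons. HoxB genes were higher in other-named neurons, and Hoxc5 and Hoxd11 were higher in ventral-named neurons. Every one of the 8 HoxB genes from Hoxb2 to Hoxb9 was higher in other-named neurons in each of the 6 libraries, and no gene of HoxC or HoxD was. Hoxb6 lay between 82.3 and 121 CPM (median 97.1) in other-named neurons and between 25.6 and 40.2 CPM (median 33.8) in ventral-named neurons, so the libraries did not overlap. With libraries summed, the ratio of other-named to ventral-named level was 3.59 for Hoxb3 (51.4 against 14.3 CPM), 3.48 for Hoxb7, 3.35 for Hoxb9, 3.02 for Hoxb8, 2.88 for Hoxb6 and 1.81 for Hoxb5, the smallest of the 8. Levels in 7 of the 8 did not overlap between the classes, Hoxb5 being the exception.

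Hoxc5 stood between 47.3 and 83.3 CPM in ventral-named neurons and between 31.4 and 53.4 CPM in other-named neurons. The ranges overlap, but within each of the 6 libraries the ventral-named value was higher. Hoxd11, a posterior gene, stood between 14.2 and 39.7 CPM (median 20.7) in ventral-named and between 3.93 and 12.5 CPM (median 11.4) in other-named neurons, with no overlap and a ratio of 2.73 over the summed libraries. Hoxc13, the most posterior HoxC gene, was also higher in the ventral-named neurons of all 6 libraries, at only 16 UMIs against 4. Hoxc4 differed little, at 49.0 against 43.3 CPM, and was higher in ventral-named neurons in 4 of 6 libraries.

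Ventral-named neurons held more UMIs per nucleus (median 2431 against 1450.5), so the comparison was repeated as UMIs per 1000 nuclei. All 8 HoxB genes were again higher in other-named neurons on that scale, by 1.07 times for Hoxb5 to 2.12 times for Hoxb3. Some genes turned with the scale, among them Hoxa7, Hoxa9 and Hoxa10. Hoxa7 and Hoxa10 were lower in CPM in the ventral-named neurons of all 6 libraries (30.6 against 51.0 CPM and 18.1 against 24.2 CPM) and higher per nucleus (83.5 against 81.9 and 49.4 against 38.9 UMIs per 1000 nuclei). Among the 21 Hox genes with at least 60 UMIs, 2 were higher in ventral-named neurons in every library and 10 in other-named neurons, beside 17% and 14.4% of the 11563 genes with as many UMIs. The subtypes were clustered on these same counts, so this is a description with no test.

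**Figure D2:**
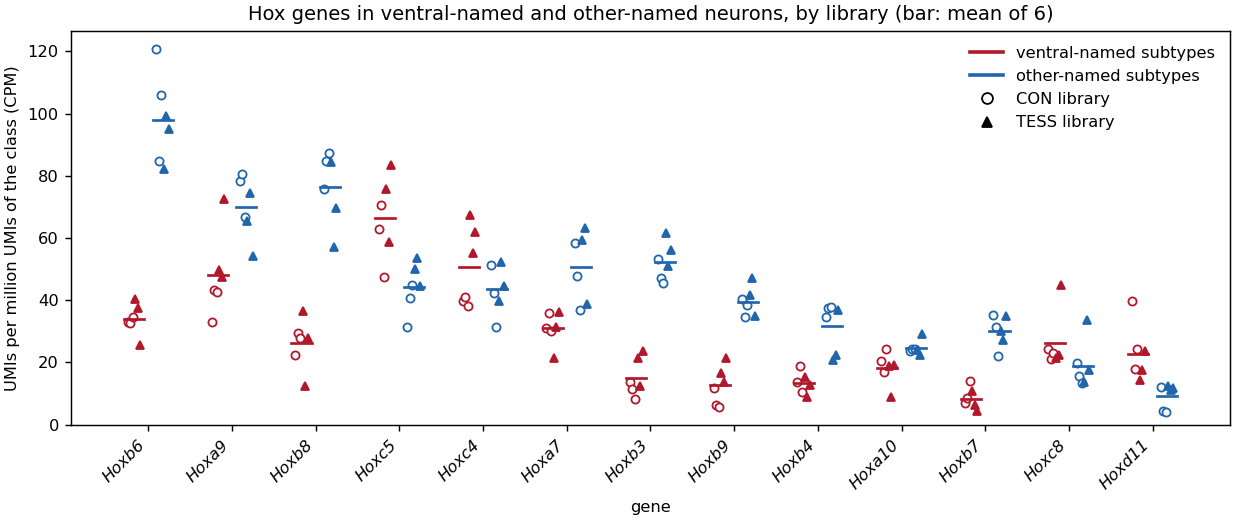
Level in CPM (vertical axis) of the 12 highest Hox genes of neurons and Hoxd11, for ventral-named (red) and other-named (blue) neurons in 3 CON (open circles) and 3 TESS (triangles) libraries; bars are means of 6 libraries. Red lies wholly below blue for Hoxb6 (25.6 to 40.2 against 82.3 to 121 CPM), while Hoxd11 shows the opposite order.

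As shares of the Hox UMIs, which do not depend on the depth of a nucleus, HoxB made up 28.4% in ventral-named and 54.2% in other-named neurons, HoxC 36.6% and 18.0%, HoxD 13.2% and 5.62%, and HoxA nearly the same, 21.7% and 22.1%. Posterior groups 10 to 13 held 13.6% in ventral-named and 6.84% in other-named neurons. Yet the mean paralog number differed by little, 6.80 against 6.56, since groups 4 and 5 were also higher in ventral-named neurons. Group 5 held 17.5% (14.1 to 20.05%) against 9.87% (7.04 to 10.9%), and group 11 held 6.03% (3.46 to 9.89%) against 1.69% (0.742 to 2.84%). Group 6 went the other way, 7.98% (4.55 to 9.14%) against 14.8% (12.2 to 17.2%).

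**Figure D3:**
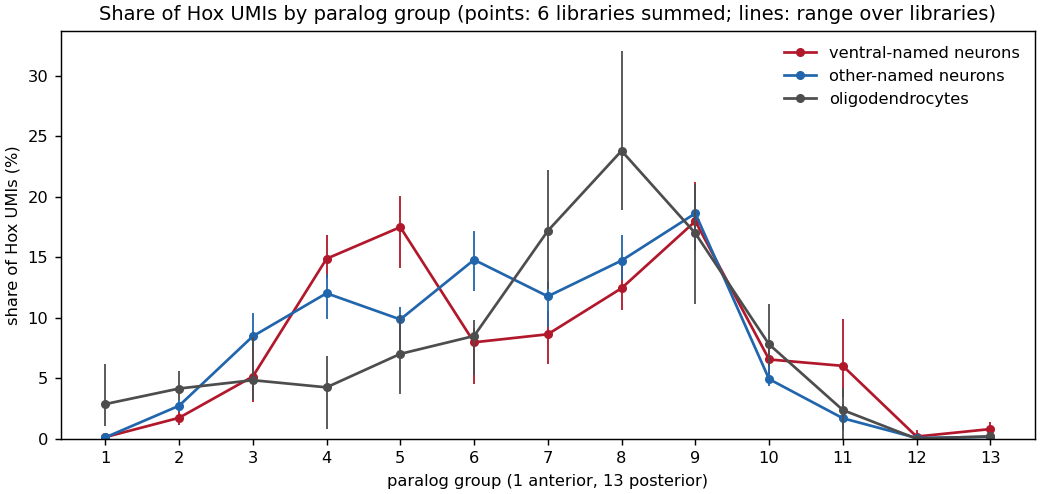
Share of Hox UMIs in percent (vertical axis) by paralog group (horizontal axis) for ventral-named neurons, other-named neurons and oligodendrocytes; points are the 6 libraries summed and lines the range over libraries. Ventral-named neurons are higher at groups 4, 5 and 11 and lower at group 6, and oligodendrocytes reach their highest share, 23.8%, at group 8.

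Among the 24 subtypes with at least 10 nuclei in every library (7 ventral-named, 17 other-named), the HoxB share ran from 19.9% in V1/Adam23, 21.8% in V2a/Etl4 and 24.4% in V1/V2b/Slit2 to 72.3% in Trh, 70.7% in Rorb and 68.8% in Npy (48 Hox UMIs). The ventral-named subtypes ranged from 19.9 to 44.3%, and 13 of the 17 other-named subtypes lay above all of them. The HoxC share ran the other way, from 43.2% in V1/Adam23 and 41.8% in V1/V2b/Slit2 down to 7.14% in Trh and 2.93% in Rorb. The HoxD share separated the names almost fully. It lay between 10.5 and 14.96% in the 7 ventral-named subtypes and below that range in 16 of 17 other-named ones, the exception being Fxyd6 with 11.4%. The share of groups 10 to 13 gave the same split, with Fxyd6 at 15.2% inside the ventral-named range of 10.4 to 19.0%. By library the subtype shares spread widely, in Rorb from 60.5 to 80.0% for HoxB and in V1/Adam23 from 14.9 to 29.4%, but these 2 did not overlap. Both were picked from near the ends of the ranking in the same libraries, so this only describes the spread.

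**Figure D4:**
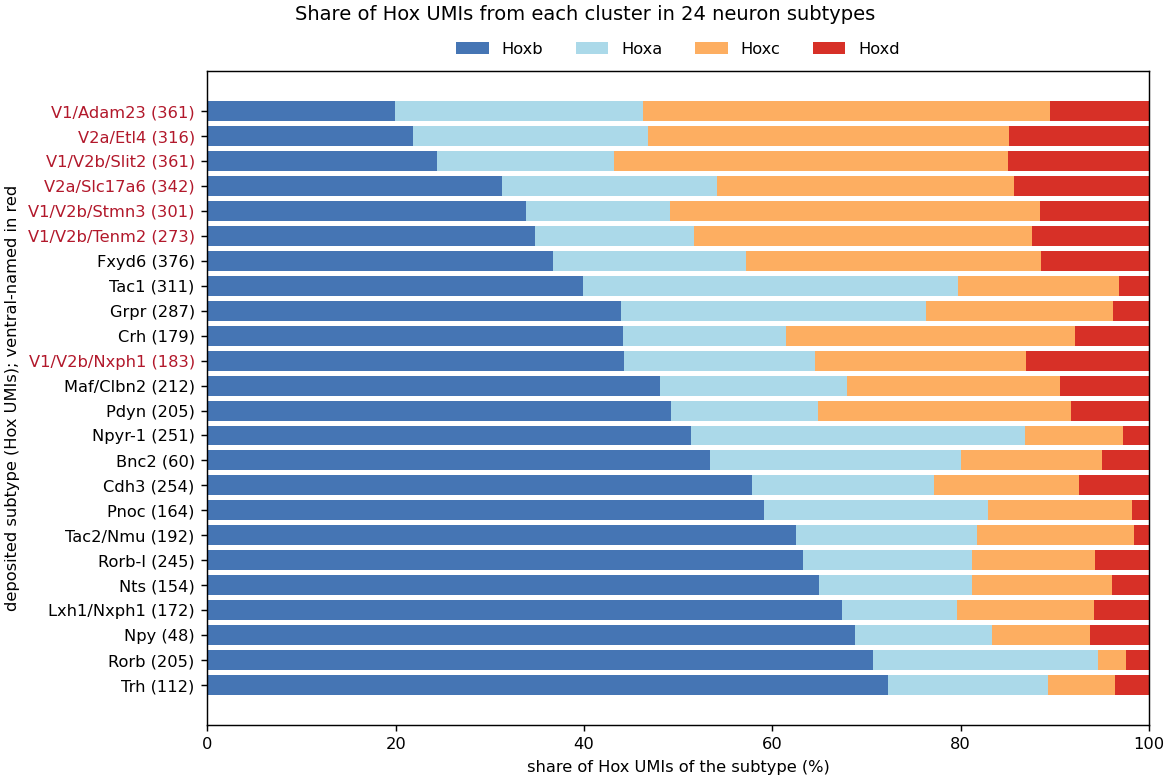
Share of Hox UMIs (horizontal axis, percent) from each cluster in the 24 neuron subtypes, 6 libraries summed, ordered by the HoxB share, with the number of Hox UMIs in brackets and ventral-named subtypes in red. In red, 6 of the 7 ventral-named subtypes have the lowest HoxB shares, 19.9 to 34.8%, and the seventh, V1/V2b/Nxph1, has a HoxB share of 44.3%.

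Single members peaked in particular subtypes. Hoxa9 was highest in Tac1 (234 CPM, 151 to 290 over libraries), Grpr (152 CPM) and Npyr-1 (133 CPM). It was lowest in Lxh1/Nxph1 (25.3 CPM, 6 UMIs), Trh (27.3 CPM, 5 UMIs) and Pdyn (34.0 CPM, 10 UMIs). The Tac1 libraries all lay above the highest Lxh1/Nxph1 library, 46.7 CPM. These subtypes were picked as the ends of the ranking in the same libraries, so this only describes the spread. Hoxa7 was highest in Npyr-1 (92.4 CPM), Grpr (83.5 CPM) and Rorb (77.1 CPM). It was lowest in Npy (8.58 CPM, 1 UMI), V1/V2b/Slit2 (18.8 CPM, 15 UMIs) and Crh (24.6 CPM, 6 UMIs). Hoxa10 was highest in Rorb (53.0 CPM), Tac2/Nmu (48.8 CPM) and Grpr (35.8 CPM) and lowest in Npy (8.58 CPM), Trh (10.9 CPM) and V1/V2b/Tenm2 (14.7 CPM), each from 1 to 12 UMIs.

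Hoxb6 and Hoxb8 peaked together in Rorb, at 231 CPM (103 to 360) and 217 CPM (90.3 to 322). The next were Nts (138 CPM) and Npyr-1 (124 CPM) for Hoxb6, and Lxh1/Nxph1 (148 CPM) and Bnc2 (101 CPM) for Hoxb8. Both were lowest in ventral-named subtypes, Hoxb6 in V1/Adam23 (21.0 CPM), V1/V2b/Slit2 (21.3 CPM) and V2a/Etl4 (24.4 CPM), and Hoxb8 in V1/Adam23 (8.83 CPM), V2a/Etl4 (16.7 CPM) and V2a/Slc17a6 (27.8 CPM). The anterior Hoxb3 and Hoxb4 instead peaked in Tac2/Nmu, at 107 CPM (67.6 to 146) and 88.8 CPM (0 to 228). Hoxb3 followed with Nts (83.0 CPM) and Rorb-I (75.7 CPM). It was lowest in V1/Adam23 (6.62 CPM, 6 UMIs), V2a/Slc17a6 (10.6 CPM, 8 UMIs) and V1/V2b/Slit2 (13.8 CPM, 11 UMIs). Hoxb4 followed with Lxh1/Nxph1 (50.7 CPM) and Nts (44.3 CPM). It was lowest in Fxyd6 (6.78 CPM, 5 UMIs), V1/V2b/Slit2 (8.76 CPM, 7 UMIs) and V2a/Etl4 (9.005 CPM, 7 UMIs).

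Hoxb7 was highest in Nts (72.0 CPM), Trh (54.5 CPM) and Rorb (43.4 CPM). It was lowest in V2a/Etl4 (5.15 CPM, 4 UMIs), V1/V2b/Slit2 (6.26 CPM, 5 UMIs) and V2a/Slc17a6 (6.63 CPM, 5 UMIs). Hoxb9 was highest in Grpr (62.7 CPM), Pdyn (61.1 CPM) and Trh (59.98 CPM) and low in V2a/Etl4 (3.86 CPM, 3 UMIs) and V1/Adam23 (9.94 CPM, 9 UMIs). It had no UMI in Bnc2, a shallow subtype in which 3 UMIs are 30.3 CPM, so a low level there is not shown. HoxC genes had another order. Hoxc5 was highest in V1/V2b/Stmn3 (89.1 CPM), V1/V2b/Slit2 (85.1 CPM) and Nts (83.0 CPM). It had no UMI in Npy, where 1 UMI is 8.58 CPM, and was low in Rorb (9.64 CPM, 2 UMIs) and Trh (10.9 CPM, 2 UMIs). Hoxc8 was highest in V1/V2b/Stmn3 (33.9 CPM), V1/V2b/Slit2 (33.8 CPM) and V1/V2b/Tenm2 (27.6 CPM) and had 1 UMI each in Lxh1/Nxph1, Rorb and Nts. Hoxc4 was highest in Crh (90.3 CPM), Lxh1/Nxph1 (67.6 CPM) and Grpr (65.6 CPM). It was lowest in Rorb (9.64 CPM, 2 UMIs), Trh (16.4 CPM, 3 UMIs) and Npyr-1 (17.3 CPM, 6 UMIs).

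Over the 24 subtypes, Hoxb6 and Hoxb8 had the most similar levels of the members with at least 200 UMIs in neurons (Pearson r = 0.870, Spearman rho = 0.797), followed by Hoxb3 with Hoxb4 (r = 0.797, rho = 0.782). Hoxc5 was most like Hoxc8 (r = 0.622, rho = 0.654), and the lowest r was that of Hoxb6 with Hoxc8, -0.691. The subtypes share libraries and differ in depth, and these coefficients only describe the 24 points. The 69 motor neuron nuclei held 62 Hox UMIs, 237 CPM (151 to 601 over libraries), against 399 to 988 CPM in the 24 subtypes. The 52 nuclei named CSF-N held 58 Hox UMIs, 1140 CPM (289 to 1825).

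Outside neurons the summed Hox level was 474 CPM in astrocytes, 431 CPM in endothelial cells, 263 CPM in microglia, 262 CPM in oligodendrocyte precursor cells and 232 CPM in oligodendrocytes, against 590 CPM in neurons. The part of free RNA in these levels was not tested. The 6 neuron markers (Rbfox3, Snap25, Syt1, Snhg11, Rbfox1 and Syp) summed in microglia to 13.1% of their neuronal level and singly to 6.31% (Syt1) to 70.6% (Snap25), where the Hox genes summed to 44.5%. Thinned to 500 UMIs per nucleus (7831 shallower nuclei left out), 26.5% of neurons, 23.9% of astrocytes, 18.5% of endothelial cells, 12.7% of oligodendrocyte precursor cells, 9.16% of oligodendrocytes and 8.22% of microglia had a Hox UMI, where all UMIs gave 62.5, 27.9, 32.1, 16.2, 10.6 and 8.94% at median depths of 1688, 652, 786, 630.5, 433 and 343 UMIs. The loss was uneven, with 135 of 6035 neurons, 5671 of 8837 oligodendrocytes and 1437 of 1656 microglia left out. The thinned microglia are thus 219 deeper nuclei, 18 of them with a Hox UMI, and may not stand for their class. The summed level of oligodendrocytes was below that of microglia. No class was shown to be free of Hox RNA, so microglia give no background level. Whether the level of oligodendrocytes is expression was not tested.

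The make-up of the Hox UMIs differed between oligodendrocytes and neurons. Most HoxC genes were low in oligodendrocytes, and Hoxd8 and Hoxd1 were higher there than in neurons. Hoxc4 stood in oligodendrocytes at 8.51% of its neuronal level, Hoxc5 at 10.6%, Hoxc8 at 9.86% and Hoxc9 at 6.93%, beside 10.4% for the summed neuron markers, which ran singly from 4.78% (Rbfox1) to 55.8% (Snap25). Hoxc11, on 10 UMIs, stood at 89.5%. Hoxb8 stood at 66.2%, Hoxa7 at 63.2% and Hoxb7 at 61.9%. Hoxd8 stood at 12.6, 11.4 and 16.7 CPM in the oligodendrocytes of CON 1 to 3 and 20.7, 21.6 and 16.3 CPM in those of TESS 1 to 3, and between 3.47 and 7.48 CPM in neurons, with no overlap, beside 12.9 CPM (10 UMIs) in astrocytes, 11.02 CPM (5 UMIs) in oligodendrocyte precursor cells and 4.87 CPM (3 UMIs) in microglia. Hoxd1, the most anterior HoxD gene, had 25 UMIs in oligodendrocytes (5.72 CPM, found in all 6 libraries) and 2 UMIs in neurons (0.171 CPM), and 0 in microglia, which allows up to 4.87 CPM there for counting error. The non-coding gene Haglr, which lies between Hoxd1 and Hoxd3 and overlaps Hoxd3 on the other strand, stood at 40.3 CPM in oligodendrocytes (30.9 to 68.0) and 4.09 CPM in neurons (1.87 to 7.11).

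Of the 21 Hox genes with at least 60 UMIs in the 2 classes, 16 were higher in neurons than in oligodendrocytes in every library and 1 (Hoxd8) lower, where 33.9% and 27% of 12520 genes were. HoxC made up 6.62% of the Hox UMIs of oligodendrocytes and HoxD 20.9%, against 24.1% and 8.09% in neurons.

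In astrocytes the HoxA cluster led, with 41.8% of 368 Hox UMIs against 21.98% in neurons. Hoxa9 stood at 95.4 CPM (40.5 to 142 over libraries) and Hoxa7 at 63.1 CPM (12.2 to 88.0), in ranges that overlap those of neurons (57.0 to 66.9 and 34.1 to 47.5 CPM). The other HoxA gene among the 12, Hoxa10, stood at 30.9 CPM (8.29 to 50.3). Against neurons, 6 of 21 Hox genes were lower in astrocytes in all 6 libraries and 0 higher, where 26.3% and 15.2% of 11935 genes were. The remaining members of the 12 stood in astrocytes, oligodendrocytes and microglia, in that order, at 33.5, 19.7 and 16.2 CPM (Hoxb6), 45.1, 37.3 and 47.0 CPM (Hoxb8), 15.5, 6.18 and 8.11 CPM (Hoxb3), 12.9, 13.0 and 19.5 CPM (Hoxb9), 10.3, 2.98 and 13.0 CPM (Hoxb4) and 11.6, 13.0 and 13.0 CPM (Hoxb7). The 3 HoxC genes stood at 32.2, 5.49 and 6.49 CPM (Hoxc5), 23.2, 3.89 and 4.87 CPM (Hoxc4) and 2.58, 2.06 and 1.62 CPM (Hoxc8).

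In all, 22 members had a level in some other class above that in neurons, but most of these values rest on few UMIs. Among them, in endothelial cells, were Hoxb7 and Hoxb9 (13 UMIs each, 51.0 CPM), Hoxb8 (15 UMIs, 58.8 CPM), Hoxa10, Hoxb2 and Hoxa13, in microglia Hoxd9 (9 UMIs, 14.6 CPM), Hoxd10 (8 UMIs, 13.0 CPM), Hoxa11, Hoxa5 and Hoxb13, in astrocytes Hoxa7, Hoxa9, Hoxc11 (8 UMIs, 10.3 CPM), Hoxa2, Hoxa6, Hoxb1, Hoxc6 and Hoxc13, and in oligodendrocytes Hoxd8 and Hoxd1. Those with no count given had 1 to 9 UMIs, apart from Hoxa7 (49), Hoxa9 (74), Hoxd1 (25) and Hoxd8 (69).

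The comparison of TESS with CON asked whether the Hox code of any class changed with stimulation. No Hox gene was called. In neurons 22 members had enough UMIs to be tested and 0 passed an adjusted p of 0.05 in edgeR's quasi-likelihood test, beside 1.04% of all 11686 genes tested, while 4 had an unadjusted p below 0.05 (14.7% of all genes). The 14 members not tested had at most 2.56 CPM. In all nuclei 0 of 22 were called (0.754% of all genes) and 5 had an unadjusted p below 0.05 (14.9%). The counts were 0 of 14 in ventral-named neurons (0.518%), 0 of 17 in other-named neurons (0.721%), 0 of 7 in oligodendrocytes (1.65%) and 0 of 1 in astrocytes (0.976%), with 2, 2, 1 and 0 at an unadjusted p below 0.05 (11.1, 12.2 and 14.4% of genes in the first 3 classes). No member had enough UMIs in oligodendrocyte precursor cells, microglia or endothelial cells. Over the 24 subtypes, only 3 tests reached the count minimum, Hoxa9 in Tac1 and Hoxc5 in V1/Adam23 and V1/V2b/Slit2, and 0 were called (0.0828% of 31412 gene-by-subtype tests). DESeq2 also called 0.

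The 5 members with the smallest p in neurons were Hoxd3, Hoxc9, Hoxb4, Hoxc4 and Hoxc5. Hoxd3, an anterior gene, stood at 8.11, 4.61 and 4.21 CPM in CON and 11.1, 11.2 and 12.2 CPM in TESS. The groups did not overlap, and the log2 fold was 0.98 ± 0.34 (SE, 3 against 3 libraries) with an adjusted p of 0.169 in edgeR. Hoxd3 shares 62.4% of its exonic bases with other genes on its strand, Hoxd4 among them, but none of its last 500, and the log2 fold of Hoxd4 was -0.21 ± 0.37. Hoxc9 stood at 11.2, 11.5 and 8.88 CPM in CON and 16.1, 19.9 and 16.3 CPM in TESS, again apart, with a log2 fold of 0.70 ± 0.27 (adjusted p = 0.211). For Hoxb4, the one tested member whose TESS values lay wholly below, it was -0.57 ± 0.22 (adjusted p = 0.231). Hoxc4 had 0.35 ± 0.17 (adjusted p = 0.337) and Hoxc5 0.33 ± 0.16 (adjusted p = 0.343). In all, 4 of 22 members lay wholly higher in TESS and 1 wholly lower, beside 10.9% and 8.61% of all genes. In the 1 batch number that holds both groups (CON 1, CON 2 and TESS 1), the log2 differences were 0.76, 0.46, -0.61, 0.25 and 0.37 in the same order.

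In all nuclei the 5 smallest p belonged to Hoxd3 (log2 fold 1.00 ± 0.31, adjusted p = 0.141 in edgeR), Hoxb4 (-0.56 ± 0.21, 0.232), Hoxc9 (0.67 ± 0.26, 0.238), Hoxc5 (0.37 ± 0.16, 0.267) and Hoxb7 (-0.42 ± 0.20, 0.333). Hoxb7 there stood at 22.5, 19.6 and 18.4 CPM in CON and 16.3, 14.7 and 15.2 CPM in TESS, without overlap. In all nuclei 4 members lay wholly higher and 2 wholly lower, beside 11.8% and 8.6% of genes. In oligodendrocytes Hoxb7 stood at 14.9, 16.2 and 19.0 CPM in CON and 7.76, 4.33 and 8.16 CPM in TESS, with a log2 fold of -1.31 ± 0.45 and an adjusted p of 0.157 in edgeR. It and Hoxa7 were the 2 of 7 oligodendrocyte members that lay wholly lower, beside 8.13% of genes, and none lay wholly higher (11.4% of genes).

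In ventral-named neurons the smallest p was that of Hoxc4, at 39.7, 41.1 and 38.1 CPM in CON and 67.4, 55.1 and 61.9 CPM in TESS (log2 fold 0.61 ± 0.22, adjusted p = 0.235 in edgeR). In other-named neurons its libraries overlapped (31.4 to 51.3 CPM in CON, 39.6 to 52.2 CPM in TESS). Of the 14 members tested, 3 lay wholly higher in TESS in ventral-named neurons and 0 lower, beside 8.72% and 7.48% of genes, and 1 of 17 higher and 0 lower in other-named neurons, beside 10.1% and 8.02%. In a test of whether the change differed between the 2 neuron classes, 0 of 17 members were called (0.0193% of genes), and the smallest p was that of Hoxd11, whose change was 1.41 log2 units lower in ventral-named neurons (SE 0.49, adjusted p = 0.509). Between neurons and oligodendrocytes 0 of 18 were called (0.727% of genes) and between neurons and astrocytes 0 of 13 (0.0691%).

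By cluster in neurons, all 5 tested HoxC genes had positive folds (0.33 to 0.70, median 0.36), and 6 of 8 tested HoxB genes negative ones (median -0.20), beside a median of -0.01 over all genes. Inside the batch number with both groups, 3 of the 5 HoxC genes were higher in TESS, while Hoxc8 (-0.18) and Hoxc10 (-0.31) were lower, and 4 of the 8 HoxB genes were lower. As a share of Hox UMIs, HoxC was 21.998, 22.4 and 20.8% in CON and 25.8, 30.0 and 28.4% in TESS, and HoxB was 46.9, 48.1 and 49.7% in CON and 44.3, 39.3 and 42.2% in TESS. Both pairs of groups were apart. These shares were looked at after the values were seen and have no test. Over the same libraries the share of neurons with ventral names was 27.14, 27.15 and 27.24% in CON and 37.01, 34.24 and 31.86% in TESS, and HoxC held more of the Hox UMIs in those neurons. With equal numbers of nuclei per subtype the HoxC shares were 23.2, 24.1 and 22.4% in CON and 22.9, 29.9 and 27.9% in TESS, which overlap, and the mean difference fell from 6.33 to 3.67 percentage points. Within ventral-named neurons alone the share was 34.7 ± 1.78% in CON and 38.9 ± 1.08% in TESS (SD, n = 3), and within other-named neurons 16.5 ± 0.935% and 20.9 ± 3.29%, and the groups were apart in both. Inside the batch number with both groups the HoxC difference was 3.54 percentage points. The part of subtype make-up and batch in these differences was not tested further.

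**Figure D5:**
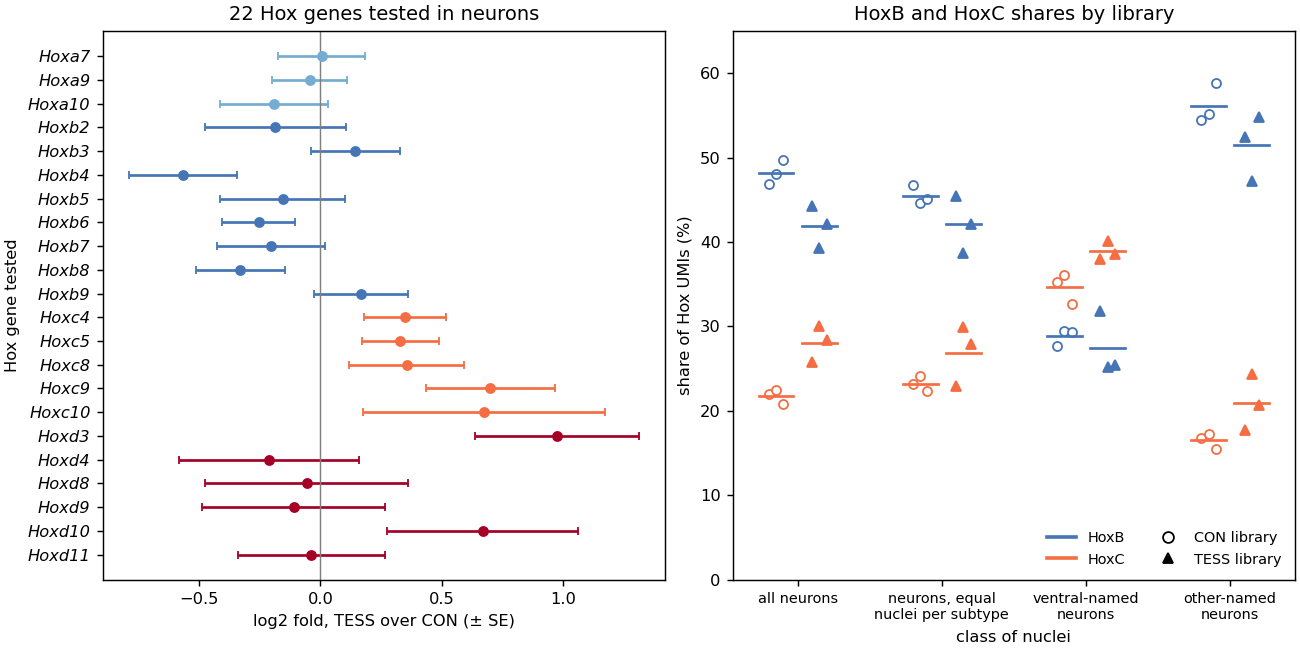
Left, log2 fold of TESS over CON with its SE for the 22 Hox genes tested in neurons, coloured by cluster; right, HoxB and HoxC shares of Hox UMIs in percent for 3 CON (open circles) and 3 TESS (triangles) libraries in all neurons, in neurons with equal numbers per subtype, and in each named class, with bars at the group means. The 5 HoxC folds lie between 0.33 and 0.70, and the HoxC shares of all neurons are apart (20.8 to 22.4 against 25.8 to 30.0%). They overlap with equal numbers per subtype, a single random draw of 568 neurons per library.

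The mean paralog number of neurons was 6.67 ± 0.0647 in CON and 6.61 ± 0.0292 in TESS (SD, n = 3), with overlap, that of oligodendrocytes 7.05 ± 0.263 and 6.86 ± 0.293, and that of astrocytes 7.24 ± 0.341 and 6.87 ± 0.444. Groups 10 to 13 held 9.01 ± 1.55% of the Hox UMIs of neurons in CON and 9.20 ± 1.27% in TESS, and 10.6 ± 0.465% and 10.2 ± 2.99% of those of oligodendrocytes. Within ventral-named neurons the groups were apart in that share, at 18.0, 12.3 and 17.2% in CON and 10.8, 10.3 and 11.7% in TESS, and lower in TESS. Of the single paralog groups, only group 3 was apart in neurons, at 7.46, 6.55 and 6.32% in CON and 8.83, 7.59 and 8.44% in TESS. In oligodendrocytes HoxD held 20.1, 19.3 and 17.2% in CON and 28.7, 25.9 and 21.1% in TESS, also apart. These shares carry no test, and those named as apart come from many shares looked at. A cluster's share can also rise when the others fall. In oligodendrocytes the 3 HoxA and 3 HoxB genes tested had negative folds and the 1 HoxD gene tested, Hoxd8, a positive one. The summed Hox level of neurons was 584 ± 33.0 CPM in CON and 600 ± 30.4 CPM in TESS, with overlap.

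Hox proteins bind DNA with the TALE homeodomain cofactors Pbx and Meis. None was called of the 9 listed cofactor genes tested in neurons and in all nuclei, or of the 7 tested in oligodendrocytes. Over all genes, 1.04% were called in neurons, 0.754% in all nuclei and 1.65% in oligodendrocytes. At such shares, 0 calls in this list or the short lists below say little about their genes. The smallest adjusted p in neurons was that of Meis2, at 122, 128 and 115 CPM in CON and 154, 172 and 174 CPM in TESS (log2 fold 0.43 ± 0.13, adjusted p = 0.110 in edgeR). Meis2 stood at 226 CPM in ventral-named and 73.2 CPM in other-named neurons, while Meis1 stood at 83.5 and 144 CPM. Upstream of the clusters, 0 of the 7 tested of 14 listed genes (retinoic acid enzymes and receptors, Cdx genes and Gdf11) were called in neurons. Of 25 listed Polycomb, Trithorax and related chromatin genes, which keep Hox clusters silent or active, 23 were tested in neurons and 0 called. The histone H3K27 demethylase gene Kdm6b came nearest, at 70.3, 58.4 and 65.9 CPM in CON and 72.5, 151 and 88.4 CPM in TESS (log2 fold 0.67 ± 0.20, adjusted p = 0.108). Of 15 listed non-coding genes of the clusters, 7 were tested in neurons and 0 called. Hoxb5os, antisense to Hoxb5 and Hoxb6, was 4.64 CPM in ventral-named and 14.3 CPM in other-named neurons, the same order as its HoxB neighbours. Whether the authors counted by strand is not given in the sources used here, so reads of a Hox gene and its antisense partner may not be told apart.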

How the data were processed

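Single-nucleus RNA-seq of mouse lumbar cord gave 6 libraries, 3 CON and 3 TESS, with groups taken from the sample titles. The authors deposited raw UMI counts per gene and nucleus, with cell types, subtypes and a batch number, which has no stated meaning. Builds mm10 and GRCm38, Seurat 3 and Cell Ranger 2.2.0 appear in the submitters' processing notes, and counting of introns and strand is not given in the sources used here. Deposited nuclei were used as given, with no doublet caller. Barcodes were checked: 205 occur in 2 or more libraries (7 to 20 per pair). The sample labels and the condition given per nucleus were the same for all 18514 nuclei.

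Counts were summed per library and class and tested with edgeR 4.0.16 (R 4.3.3; quasi-likelihood, TMM, filterByExpr with a minimum count of 10, Benjamini-Hochberg over all genes tested in the class), with DESeq2 1.42.0 as an alternative, and the scripts were tested on simulated data. CPM is UMIs per 1000000 UMIs of the class. Positions come from GENCODE (GRCm38), to which all 36 members matched. The members and lists were chosen with earlier results of these data known, and scores over members carry no p. The text names the 12 highest members in neurons, members highest outside neurons, and the 5 smallest p in neurons and all nuclei. Nothing says that libraries came from separate mice, so p-values measure the spread between libraries. Some results are not reported here. Intervals and limits cover counting error only (a count of 0 allows 3 UMIs).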

Additional observations from a re-analysis of the deposited data

How the results depend on the processing

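Of 112 alternatives over 10 comparisons, 78 tested Hox genes and called genes of some kind, and none of them called a Hox gene (DESeq2 size factors, DESeq2's own test, no filter on low counts, the replicate block, batch as a term, each library left out, equal numbers of nuclei per type). In 31, nearly all in oligodendrocyte precursor cells, microglia and endothelial cells, no Hox gene could be tested, and in 3, with batch as a term in all nuclei, neurons and ventral-named neurons, no gene of any kind was called, so these say nothing on the Hox genes. All 10 named folds kept their sign in their 129 values, the main fits among them. These folds were picked by smallest p, and in each the groups lay wholly apart. A kept sign was therefore nearly fixed in advance and adds no support. The TESS and CON libraries that share a replicate number did not deviate together (correlations -0.05, -0.00 and -0.02). No pairing by number was seen, but 3 libraries per group cannot exclude it. With the replicate block the counts of called Hox genes were again 0, beside 139 genes of any kind called in all nuclei (101 without it) and 169 in neurons (122). The lowest and highest adjusted p in neurons were 0.124 and 0.755 for Hoxd3, and 0.221 and 0.870 for Hoxb4, whose log2 fold ran from -0.73 to -0.15. The mean paralog number of oligodendrocytes turned from -0.19 to 0.0556 (TESS minus CON) with only members that overlap no other gene. The share of groups 10 to 13 in neurons, 0.19 percentage points higher in TESS, became -0.67 with those members, -0.0197 with weights of log2(CPM + 1), -0.0605 inside the batch with both groups, -0.62 with equal numbers per subtype, and -0.56 to 0.99 with a library left out. In oligodendrocytes it was -0.34, and -2.07 to 0.58 with a library left out. The replicate block left these differences as they are. The cause of these turns was not tested. Depth limits the comparison: 14 of 36 members could not be tested in neurons and 7 could be in oligodendrocytes. The interaction tests, the HoxB and HoxC shares, the levels per nucleus, the thinning and the single-batch folds were chosen after seeing the data.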
